A study of Mus musculus with 10 samples.

Results

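The 10 genes described here encode glutathione S-transferases and a microsomal relative: Gsta4 of the alpha class, Gstm1, Gstm2, Gstm5 and Gstm7 of the mu class, Gstp1 of the pi class, Gstt1 and Gstt3 of the theta class, Gsto1 of the omega class and the membrane enzyme Mgst1. They were taken by symbol from a table of read counts for 43346 genes, and all 10 were found there, each once. The choice was made with the differences between knockout and wildtype cells in these same libraries known, so the levels, differences and calls of the 10 genes are descriptions and carry no p-value. Polyadenylated RNA came from O9-1 cells, a tetraploid mouse line derived from the cranial neural crest. The wildtype group (WT) comprised 4 biologically independent samples, the Kat5 knockout (ko) group 3 CRISPR/Cas9-edited clones and the Ep400 ko group another 3. The clones came from cells transfected with Cas9 and EGFP plasmids and sorted for EGFP, steps not described for the wildtype samples. No treatment after cloning is described for any group. All cells were grown on Matrigel in fibroblast-conditioned medium that contained β-mercaptoethanol. Per the study's description of the clones, insertions or deletions predicted to shift the reading frame were present in every allele of the Kat5 ko clones, and frameshifts in every allele of Ep400/1, whereas Ep400/2 and Ep400/3 also carried alleles with short in-frame deletions at the ATP binding site. Each knockout library stands for a single expanded cell, and no cloning of the wildtype samples is described. Effects of transfection, sorting or cloning and an effect of the knockout therefore cannot be told apart.

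Glutathione S-transferases join the tripeptide glutathione to electrophilic compounds such as aldehydes, epoxides and quinones, which makes these compounds more soluble and ready for export. The cytosolic classes have different preferred substrates, while microsomal transferases sit in membranes and belong to an unrelated protein family. Many transferase genes are known targets of the transcription factor NRF2, which binds antioxidant response elements (AREs). Kat5, also called Tip60, is a histone acetyltransferase and Ep400 an ATP-dependent chromatin remodeler, and both are subunits of the Tip60/Ep400 complex.

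The libraries held 30968945 to 48301792 counts on genes. Levels are given below as counts per 1000000 (CPM) with TMM factors from all 10 libraries, and log2 differences come from edgeR. Their standard error (SE) was taken as the absolute log2 difference divided by the square root of the F value of edgeR's quasi-likelihood test. As a check of the labels, Kat5 transcripts were at 48.8 to 57.5 CPM in wildtype samples and at 16.4 to 23.2 CPM in Kat5 ko clones, and Ep400 transcripts at 157 to 165 CPM in wildtype samples and at 54.7 to 61.4 CPM in Ep400 ko clones. Of 17 neural crest markers, 14 had a mean above 1 CPM, while Sox10 and Foxd3 had 0 counts in every library. The markers' summed level was 1790 to 2030 CPM in wildtype samples, 1800 to 2070 CPM in Kat5 ko clones and 2540 to 3800 CPM in Ep400 ko clones. Of the 6 epithelial and 4 hepatocyte markers, cell types rich in transferases, 0 exceeded a mean of 1 CPM, and their sums stayed at or below 4.80 and 0.462 CPM, respectively.

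In wildtype cells, transcripts of Gsto1 were the most abundant of the 10 per exon length, at 230 ± 23.8 CPM per kb (mean ± SD, n = 4). The mu-class gene Gstm1 followed at 148 ± 20.1 CPM per kb. Next came Gsta4 at 64.1 ± 3.79 and Gstp1 at 62.2 ± 19 CPM per kb, whose ranges overlapped. Gstm5 at 15.2 ± 2.27 and Gstm2 at 6.09 ± 1.19 CPM per kb lay apart from their neighbours in the order. The ranges of Gstm7 at 2.36 ± 0.994 and Mgst1 at 2.23 ± 2.35 CPM per kb overlapped again. At the bottom were Gstt1 at 0.179 ± 0.0108 and Gstt3 at 0.0571 ± 0.0379 CPM per kb, values that rest on 3 to 19 counts per library. Thus transcripts of the omega, mu, alpha and pi classes made up nearly all of the transferase RNA from these genes, and those of the theta class were close to the detection limit.

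**Figure D1:**
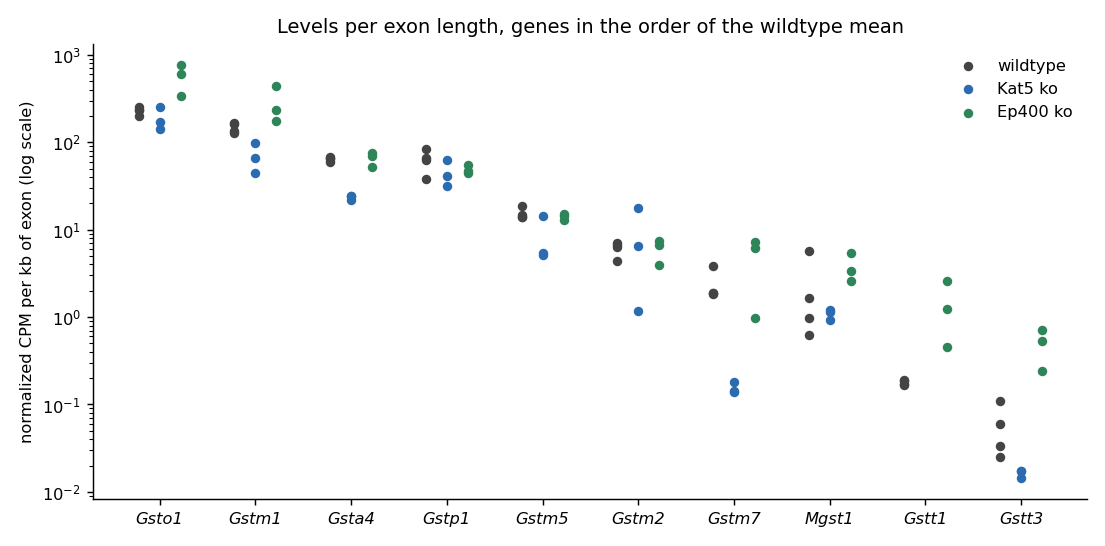
Normalized CPM per kb of exon on a log scale for each library (points), with the genes ordered by the wildtype mean and the groups side by side. Gsto1 stood at the top at 230 CPM per kb in wildtype cells and Gstt3 at the bottom at 0.0571, and the 3 Kat5 ko points of Gstt1 are missing because their counts were 0.

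The enzyme encoded by Gsto1 differs from most transferases in having a cysteine in its active site and acts as a thioltransferase and dehydroascorbate reductase. Its transcript level was 516, 400, 477 and 468 CPM in WT/1 to WT/4. In Kat5/1 to Kat5/3 it was 341, 513 and 286 CPM. In Ep400/1 to Ep400/3 it was 1230, 1560 and 689 CPM. Every Ep400 ko clone thus lay above the wildtype range, whereas the Kat5 ko clones overlapped it. The log2 difference from wildtype was 1.32 ± 0.26 (SE) for Ep400 ko and −0.32 ± 0.21 for Kat5 ko. Gsto1 lies at chr19:47854970-47864790 (GRCm38, which is mm10) on the plus strand and is overlapped on the other strand by Cfap43, which had 1108 to 2542 counts per library. The Ep400 ko clones had chromosome-wide medians of 0.22 to 0.27 (log2, against the wildtype mean) on chromosome 19, and the Kat5 ko clones of −0.28 to −0.08. With these medians taken out as offsets, the difference of Gsto1 was 1.08 for Ep400 ko and −0.15 for Kat5 ko.

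Mu-class enzymes accept a wide range of aromatic and epoxide substrates, and the 4 genes described here lie within a cluster on chromosome 3. Gstm1, the most abundant of them, had 247, 189, 196 and 239 CPM in WT/1 to WT/4. Its level was 145, 66.1 and 97.1 CPM in Kat5/1 to Kat5/3. It was 256, 341 and 651 CPM in Ep400/1 to Ep400/3. All Kat5 ko clones were below and all Ep400 ko clones above the wildtype range, although Ep400/1 exceeded WT/1 by a narrow margin. The log2 differences were −1.11 ± 0.26 for Kat5 ko and 0.93 ± 0.29 for Ep400 ko, and the latter was 0.45 without Ep400/3. Of the 100-base windows in Gstm1 transcripts, 5.86% also occur in transcripts of other genes, among them Gstm3 with 0 to 1 counts per library.

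Gstm7 showed the lowest relative level in Kat5 ko cells among the 8 genes with enough counts for the comparison. It had 3.00, 2.95, 6.16 and 2.98 CPM in WT/1 to WT/4. Only 0.221, 0.231 and 0.287 CPM were left in Kat5/1 to Kat5/3, which correspond to 7 to 13 counts. In Ep400/1 to Ep400/3, it had 67, 367 and 402 counts, from 1.57 up to 11.5 CPM, so that Ep400/1 lay below and the other two clones above the wildtype range. The log2 difference was −3.95 ± 0.45 for Kat5 ko and 1.02 ± 0.60 for Ep400 ko. None of its 100-base windows occur in another gene's transcripts.

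The remaining mu-class genes varied between clones of the same genotype. Gstm2 had 7.36 to 11.9 CPM in wildtype cells and 6.69 to 12.5 CPM in Ep400 ko clones. Among Kat5 ko clones it had 10.9 CPM in Kat5/1, 1.98 CPM in Kat5/2 and 29.8 CPM in Kat5/3, a 15.1-fold range around the wildtype values. The Kat5 ko difference of 0.44 ± 0.68 on the log2 scale was accordingly within its error and ranged from −0.68 to 0.97 when single libraries were left out. Gstm5 had 17.6 to 23.7 CPM in wildtype cells, 16.3 to 19.3 CPM in Ep400 ko clones and 18.2, 6.89 and 6.48 CPM in Kat5/1 to Kat5/3. Kat5/1 thus matched the wildtype level while the other two clones were below it, and the log2 difference of −0.91 ± 0.38 became −1.57 without Kat5/1. An opposite-strand transcript, 4933431E20Rik, overlaps Gstm5 and had 29 to 242 counts, against 209 to 821 for Gstm5.

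The alpha-class gene Gsta4 encodes the enzyme best known for conjugating 4-hydroxynonenal, an aldehyde from lipid peroxidation. Its levels were 80.6, 74.9, 86.4 and 82.7 CPM in WT/1 to WT/4. In Kat5/1 to Kat5/3 they were 30.5, 30.8 and 27.9 CPM. In Ep400/1 to Ep400/3 they were 65.2, 94.7 and 87.1 CPM. The Kat5 ko clones agreed closely with each other (1.10-fold range) and lay far below wildtype cells, whereas Ep400 ko clones scattered around them. This corresponds to log2 differences of −1.48 ± 0.13 for Kat5 ko and 0.02 ± 0.15 for Ep400 ko. Gsta4 on chromosome 9 shares none of its 100-base windows with other transcripts. The pi-class gene Gstp1, whose product also binds and inhibits the stress kinase JNK, had 58.6 to 130 CPM in wildtype cells, 48.4 to 96.6 CPM in Kat5 ko clones and 69.4 to 85.6 CPM in Ep400 ko clones. Its groups overlapped, with log2 differences of −0.49 ± 0.31 for Kat5 ko and −0.35 ± 0.24 for Ep400 ko. Its value is uncertain because 25.1% of its windows also occur in Gstp2 or a pseudogene. Gstp2 itself had 0 to 4 counts per library.

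**Figure D2:**
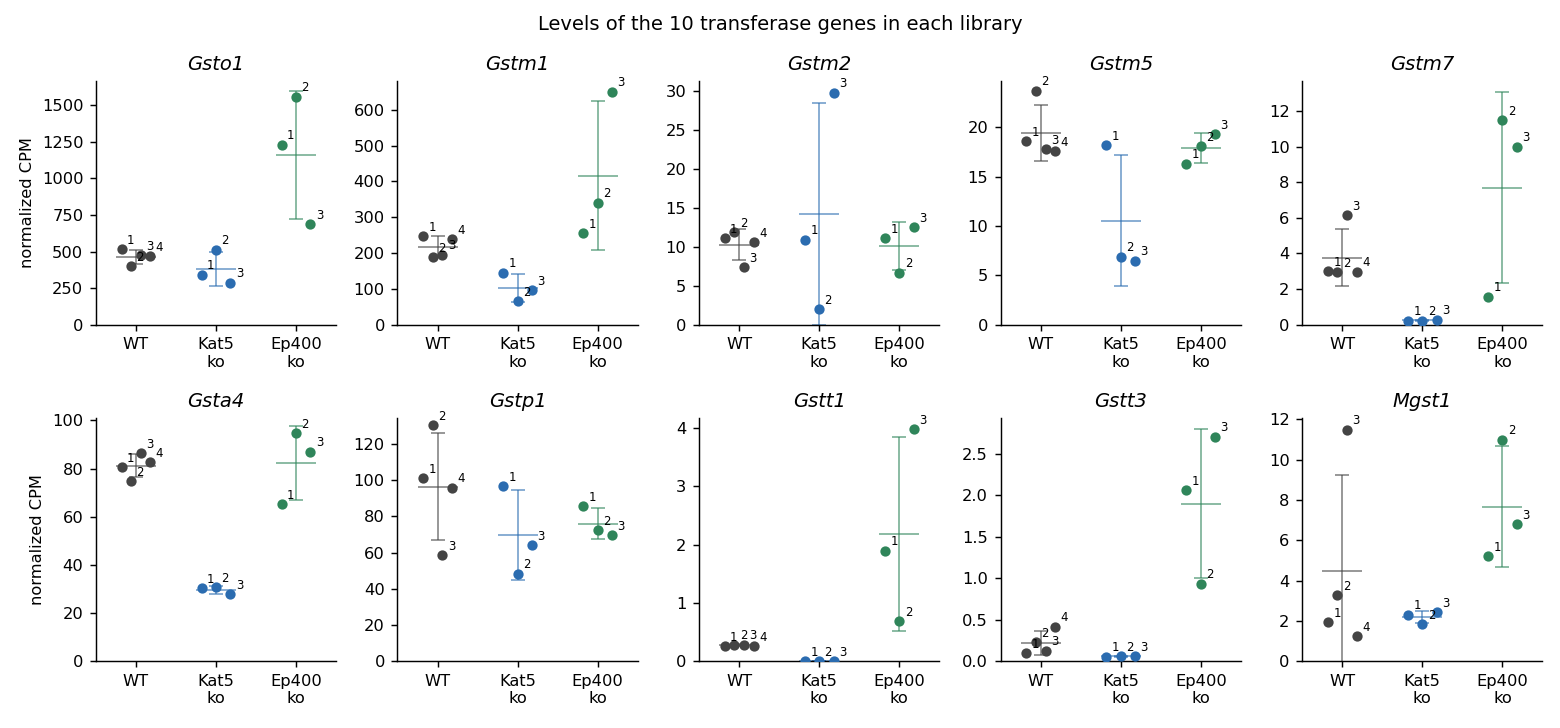
Normalized CPM of each gene per library (points, numbered by sample or clone), with mean (long horizontal line) and SD (whiskers, not drawn below 0), for 4 wildtype samples and 3 clones of each knockout; each panel has its own axis starting at 0. Gsta4 and Gstm7 were low in all Kat5 ko clones, while Gsto1, Gstt1 and Gstt3 were high in all Ep400 ko clones.

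Theta-class enzymes are regarded as an old branch of the family and act on small halogenated compounds and epoxides. Gstt1 was found with 8, 10, 11 and 12 counts in WT/1 to WT/4, or 0.256 to 0.289 CPM. It had 0 counts in each of the 3 Kat5 ko clones. In Ep400/1 to Ep400/3 it reached 81, 22 and 160 counts, or 1.90, 0.688 and 3.98 CPM. The groups did not overlap. Set against a floor of 3 counts per library, the Kat5 ko level was at least 3.32-fold lower than wildtype, and the log2 difference for Ep400 ko was 2.99 ± 0.57. Gstt3, its neighbour on chromosome 10, had 3, 8, 5 and 19 counts in WT/1 to WT/4. It had 2, 2 and 3 counts in Kat5/1 to Kat5/3, and 88, 30 and 109 counts in Ep400/1 to Ep400/3. As for Gstt1, Ep400/3 was highest and Ep400/2 lowest of the Ep400 ko clones. The ratio of Kat5 ko to wildtype was 0.267 with a 95% counting interval of 0.1 to 0.61, which covers counting error only, and the log2 difference for Ep400 ko was 3.07 ± 0.59. Of the Gstt3 windows, 10.8% are shared with the overlapping same-strand gene Gm20441, which had 0 counts. Even in Ep400 ko cells the theta-class transcripts remained scarce, with means of 1.43 CPM per kb for Gstt1 and 0.496 CPM per kb for Gstt3.

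Mgst1 encodes a membrane-bound transferase that also reduces lipid hydroperoxides. It had 1.95, 3.29, 11.5 and 1.24 CPM in WT/1 to WT/4. Kat5/1 to Kat5/3 had 2.32, 1.85 and 2.45 CPM, and Ep400/1 to Ep400/3 had 5.23, 11 and 6.82 CPM. WT/3 alone accounted for the height of the wildtype mean, and all Ep400 ko clones were above the other 3 wildtype samples. The log2 differences were −1.05 ± 0.72 for Kat5 ko and 0.78 ± 0.70 for Ep400 ko, and without WT/3 they were 0.01 and 1.82. WT/3 was also the highest wildtype sample for Gstm7 and the lowest for Gstp1.

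To see which sequence lies in front of these genes, promoter windows from RefSeq (GRCm38) with 250 bases before and 50 after a start site were searched on both strands. Windows existed for 9 of the 10 genes, 13 windows in all, and Gsta4 had none. The ARE core, TGACNNNGC, occurred in 3 windows, those of Gstm5, Gstm7 (its second start site) and Mgst1, against 12.4% of 32851 promoters. The AP-1 motif, TGANTCA, which can overlap an ARE core, occurred in 2 windows, those of Gstm5 and Gstp1, against 7.81% of promoters. The ATF4 composite motif, TGATGNAA, occurred in 0 windows, against 3.97% of promoters. The sequences below show the upstream bases of the 3 genes that were highest in Ep400 ko clones relative to wildtype, which hold no such match, and of Gstm5, which holds both an ARE core and an AP-1 motif in capitals. Bases in the gene's own annotated exons are left out.
Gsto1 (chr19:47854723-47854969, plus strand): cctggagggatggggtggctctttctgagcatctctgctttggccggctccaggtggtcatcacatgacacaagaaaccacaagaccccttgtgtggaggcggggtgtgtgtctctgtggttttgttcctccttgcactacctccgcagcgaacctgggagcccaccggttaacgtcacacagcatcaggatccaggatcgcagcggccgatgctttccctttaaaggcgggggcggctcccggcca
Gstt3 (chr10:75781415-75781664, minus strand): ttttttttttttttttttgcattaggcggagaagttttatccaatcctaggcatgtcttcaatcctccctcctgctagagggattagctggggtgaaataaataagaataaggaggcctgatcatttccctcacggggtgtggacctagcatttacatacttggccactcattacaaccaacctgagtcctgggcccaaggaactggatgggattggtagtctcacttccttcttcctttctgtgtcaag
Gstt1 (chr10:75797732-75797981, minus strand): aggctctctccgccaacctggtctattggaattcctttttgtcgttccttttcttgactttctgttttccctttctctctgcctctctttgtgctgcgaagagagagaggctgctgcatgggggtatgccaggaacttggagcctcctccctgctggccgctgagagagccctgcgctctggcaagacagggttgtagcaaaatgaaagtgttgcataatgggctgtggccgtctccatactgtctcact
Gstm5 (chr3:107895604-107895820, plus strand): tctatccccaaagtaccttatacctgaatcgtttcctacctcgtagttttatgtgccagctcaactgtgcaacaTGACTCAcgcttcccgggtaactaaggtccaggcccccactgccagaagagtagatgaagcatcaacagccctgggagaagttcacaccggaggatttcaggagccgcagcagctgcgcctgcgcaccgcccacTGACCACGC
The Gstt1 window lies within the GENCODE gene, whose annotated 5′ end is at position 75798584, and the Gstm5 window overlaps an exon of 4933431E20Rik. A match is a description of the letters only.

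In the comparison of Kat5 ko with wildtype, 8 of the 10 genes had enough counts for the fit, and Gstt1 and Gstt3 did not. At an adjusted p of at most 0.05 (edgeR's quasi-likelihood test, Benjamini-Hochberg over all 13434 genes), Gsta4 and Gstm7 were called lower and 0 genes higher, where 0.372% of all tested genes were called lower and 0.127% higher. Under the study's own limits on size and abundance, the same 2 genes were called, beside 0.387% of all tested genes. Of the 8 tested genes, 3 had all clones below all wildtype samples, namely Gsta4, Gstm1 and Gstm7, and 10.2% of all tested genes showed this pattern and 9.67% the opposite one. The untested Gstt1 and Gstt3 also had all clones below in CPM, but for Gstt3 this rests on 2 to 3 counts against a wildtype sample with 3 counts. The median log2 difference of the 8 genes was −0.98, beside 0.00 for all tested genes. Since the genes were chosen on this contrast, nothing further is read from these counts. DESeq2 called Gstm1 and Gstt1 lower in addition. The edgeR calls of Gsta4 and Gstm7 were both lost without WT/1, WT/4 or Kat5/3, while Gsta4 stayed between −1.50 and −1.42 and Gstm7 between −4.06 and −3.59 with any library left out.

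In the comparison of Ep400 ko with wildtype, all 10 genes could be fitted. Gstt1, Gstt3 and Gsto1 were called higher and 0 genes lower by the same test over 13836 genes, where 8.09% of all tested genes were called higher and 5.76% lower. Under the study's limits, 1 of them was called, beside 6.47% of all tested genes. In 4 genes, the 3 just named and Gstm1, every clone was above every wildtype sample, as in 16.1% of all tested genes, while 14.1% had every clone below. The median log2 difference was 0.86, beside 0.04 for all tested genes. Again, the genes were chosen on this contrast. DESeq2 called Gstm1 higher in addition, at 0.90. With edgeR, Gsto1 lost its call without WT/4, and Gstt1 and Gstt3 kept theirs with any library left out.

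When Ep400 ko clones were compared with Kat5 ko clones directly, Gsta4, Gstm1, Gstm7, Gstt1, Gstt3, Gsto1 and Mgst1 were called higher in Ep400 ko, 7 of 10 beside 4.34% of all 13587 tested genes, and 0 were called lower, beside 2.97%. Under the study's limits, 5 were called, beside 5.5% of all tested genes. The same 7 genes had every Ep400 ko clone above every Kat5 ko clone, a pattern seen in 20.5% of all tested genes, and the opposite in 18%. This contrast is made of the same knockout libraries on which the genes were chosen, so these counts are again descriptions. Gstm7 had the largest fitted difference among genes with counts in each group beyond the floor, 4.92 ± 0.81 on the log2 scale. For Gstt3, the ratio of counts was 31.6 with a counting interval of 15.1 to 79.6, and Gstt1 was at least 26.5-fold higher. The differences of the other called genes were 1.99 ± 0.43 for Gstm1, 1.78 ± 0.42 for Mgst1, 1.59 ± 0.37 for Gsto1 and 1.45 ± 0.21 for Gsta4. Gstm5 at 0.74 ± 0.44, Gstp1 at 0.10 ± 0.28 and Gstm2 at −0.51 ± 0.80 were not called. All 7 calls were lost without Kat5/2, Kat5/3 or Ep400/3, and the 7 differences kept their sign with any library left out. With chromosome medians taken out as offsets, 5 of the 10 were called, since the differences of Gsto1 (1.18) and Mgst1 (1.68) no longer passed.

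**Figure D3:**
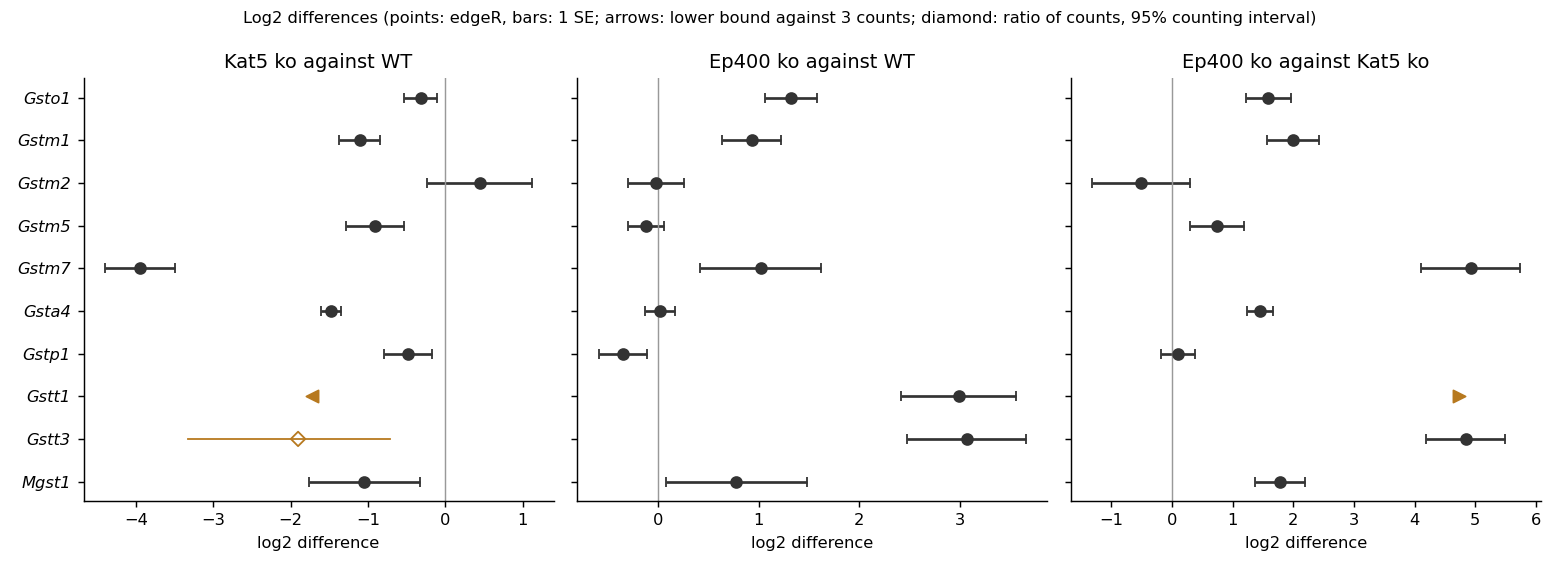
Log2 differences of the 10 genes in the 3 comparisons, with points and bars for the edgeR estimate ± 1 SE, arrows for a lower bound against 3 counts per library and a diamond for a ratio of counts with its 95% counting interval; the panels have different axis ranges. Kat5 ko values lie mostly left of 0, down to −3.95 for Gstm7, and the Ep400 ko values of Gstt1, Gstt3 and Gsto1 lie right of 0 at 2.99, 3.07 and 1.32.

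Both knockouts were compared with the same 4 wildtype libraries, so the differences of a gene in these comparisons are not independent of each other. Side by side, the log2 differences for Kat5 ko and Ep400 ko were −1.48 and 0.02 for Gsta4, −1.11 and 0.93 for Gstm1, and −3.95 and 1.02 for Gstm7. Gstm1, Gstt1 and Gstt3 had Kat5 ko clones below and Ep400 ko clones above the whole wildtype range in CPM, for Gstt3 with Kat5 ko counts at the floor.

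The 10 genes together had 979, 836, 861 and 919 CPM in WT/1 to WT/4. Their sum was 644, 669 and 515 CPM in Kat5/1 to Kat5/3, and 1680, 2120 and 1550 CPM in Ep400/1 to Ep400/3. These groups did not overlap, and Gsto1 and the mu class made up most of every sum. The sum is taken over genes chosen with these differences known, so its separation between the groups is a description. The makeup differed between clones. Gsto1 took 47.8% to 55.4% of the sum in wildtype samples, 76.6% in Kat5/2, 73.4% in Ep400/1 and 73.7% in Ep400/2, but only 44.4% in Ep400/3. Mu-class transcripts took 26.4% to 29.4% in wildtype samples, 11.2% in Kat5/2 and 44.7% in Ep400/3. Thus the Ep400 ko clones shared a raised sum that consisted largely of Gsto1 in Ep400/1 and Ep400/2 and of Gsto1 and Gstm1 in similar amounts in Ep400/3. In these bulk samples, less RNA per cell and fewer cells with the transcript cannot be told apart.

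**Figure D4:**
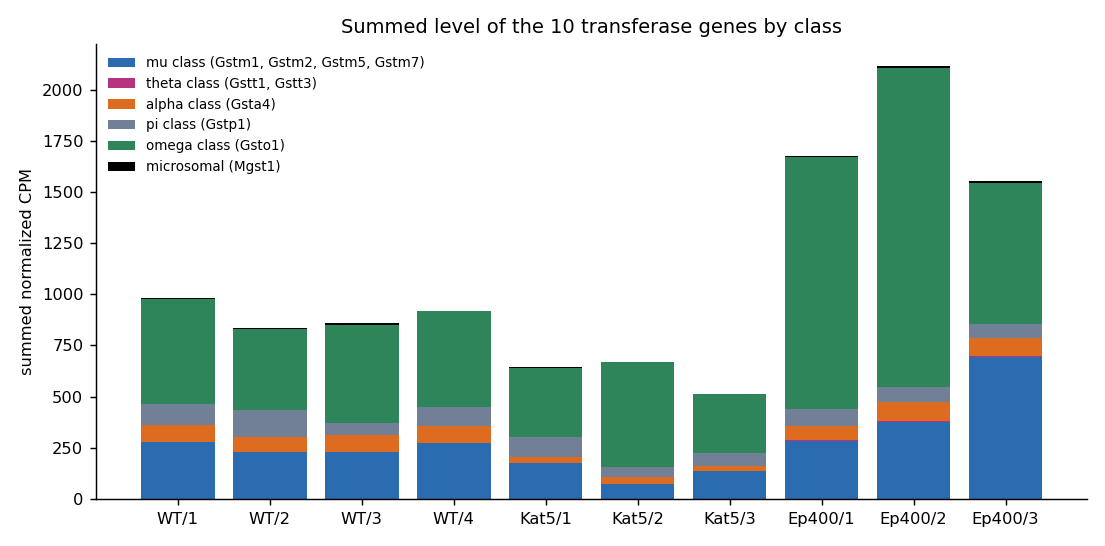
Summed normalized CPM of the 10 genes in each library, stacked by class. The bars stood at 836 to 979 CPM in wildtype samples, at 515 to 669 in Kat5 ko clones and at 1550 to 2120 in Ep400 ko clones, and the omega class (Gsto1) was the largest part of all bars except that of Ep400/3, where the mu class was slightly larger.

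Lists of other genes were drawn up with earlier results of these data known, so calls and p-values of listed genes are descriptive. The first list held other transferase genes and relatives such as Alox5ap, Ptges and Gstcd, and 10 of the 19 found had enough counts. Of these 10, 3 rose and 0 fell in Ep400 ko clones, beside 8.09% and 5.76% of all tested genes. Mgst3, a microsomal relative that conjugates glutathione to leukotriene A4, had 108, 65.5, 59.6 and 106 CPM in WT/1 to WT/4 and 246, 260 and 139 CPM in Ep400/1 to Ep400/3, a log2 difference of 1.35 ± 0.29 with an adjusted p of 0.0195 (edgeR's quasi-likelihood test). Gsto2, the second omega-class gene, starts 0.744 kb beyond Gsto1. It had 4.88 to 6.98 CPM in wildtype samples and 9.13, 13.1 and 16.6 CPM in Ep400/1 to Ep400/3, a log2 difference of 1.05 ± 0.26 with an adjusted p of 0.0339 by edgeR. Gsta1, an alpha-class gene 21.3 kb from Gsta4, had 0.0261 to 0.479 CPM in wildtype samples and 2.58, 1.28 and 1.37 CPM in Ep400/1 to Ep400/3, a log2 difference of 2.55 ± 0.69 with an adjusted p of 0.0423 by edgeR. The median of the 10 tested genes was −0.20, with 7 at an unadjusted p under 0.05 and 6 of the list called by DESeq2. Lower estimates that did not pass the edgeR test included Gstm4 (−2.33 ± 0.95, adjusted p 0.130), Mgst2 (−2.06 ± 0.81, adjusted p 0.119), Alox5ap (−1.29 ± 0.47, adjusted p 0.0998) and Gstcd (−0.80 ± 0.25, adjusted p 0.0688). Each of them had every Ep400 ko clone below every wildtype sample, as had 14.1% of all tested genes. In Kat5 ko clones 0 of these 10 genes passed the edgeR test, 3 had an unadjusted p under 0.05, 3 passed with DESeq2, and the median log2 difference was −0.84. There Gstm4 was at −1.86 ± 0.87, Mgst2 at −1.65 ± 0.49, Gsto2 at −0.78 ± 0.62, Mgst3 at −0.56 ± 0.41 and Gsta1 at −0.10 ± 0.86. The remaining tested genes, Gstz1, Gstcd, Ptges, Ltc4s and Alox5ap, had differences of −1.29 to 0.04 in Ep400 ko clones and −2.56 to 0.10 in Kat5 ko clones, and none of them passed. Between the knockouts, 0 of the 10 passed the edgeR test, 5 had an unadjusted p under 0.05 and 6 genes of the list passed with DESeq2, with Mgst3 at 1.86 ± 0.47 (adjusted p 0.0539). Gstk1, the kappa-class gene, had 0 counts in every library.

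Of 12 tested genes that make and recycle glutathione, 1 rose and 1 fell in Ep400 ko clones and 2 fell in Kat5 ko clones, beside 8.09%, 5.76% and 0.372% of all tested genes. In Ep400 ko clones, Gclc, the catalytic subunit of the rate-limiting enzyme of glutathione synthesis, rose by 1.55 ± 0.27 on the log2 scale (adjusted p 0.00963, edgeR), and Cth, which produces cysteine from cystathionine, fell by 1.53 ± 0.32 (adjusted p 0.0181, edgeR). In Kat5 ko clones, Cth fell by 3.23 ± 0.54 (adjusted p 0.0496, edgeR) and Chac1, which degrades glutathione, by 2.65 ± 0.41 (adjusted p 0.0444, edgeR). The other 9 genes did not pass in either comparison with wildtype. An unadjusted p under 0.05 was found for 8 of the 12 in Ep400 ko and 4 in Kat5 ko clones, and DESeq2 called 3 and 4. Between the knockouts, 0 passed the edgeR test, 4 had an unadjusted p under 0.05 and DESeq2 called 4. Of 7 tested peroxidase and glutaredoxin genes, 0 passed the edgeR test in each of the 3 comparisons, with unadjusted p under 0.05 for 1 in Kat5 ko, 2 in Ep400 ko and 1 between the knockouts, and 0 passed with DESeq2.

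Export and breakdown of glutathione conjugates comprised 11 tested genes. In Ep400 ko clones, the exporter gene Abcc5 rose by 1.32 (adjusted p 0.0037, edgeR) and Acy3, which deacetylates mercapturic acids, by 2.04 (adjusted p 0.00911, edgeR). Among all tested genes, 8.09% were called higher and 5.76% lower in that comparison. In the list, 5 genes had an unadjusted p under 0.05 there and 4 passed with DESeq2. In Kat5 ko clones 0 passed the edgeR test, 7 had an unadjusted p under 0.05 and 4 of the list passed with DESeq2. Ep400 ko clones had higher levels than Kat5 ko clones of Anpep, an aminopeptidase gene (5.25 ± 0.96, adjusted p 0.0317, edgeR), Acy3 (3.49 ± 0.41, adjusted p 0.0197) and Abcc5 (1.05 ± 0.25, adjusted p 0.05), and lower levels of the conjugate exporter gene Abcc1 (−1.20 ± 0.28, adjusted p 0.0483). The Anpep estimate rests on at most 10 counts per library in Kat5 ko clones. Between the knockouts, 4.34% of all tested genes were called higher and 2.97% lower. Of 22 tested genes for other enzymes of aldehydes, epoxides and quinones, Aldh3a1, Aldh1a1 and Cbr3 rose and Akr1b8 fell in Ep400 ko clones. These counts stand beside 8.09% higher and 5.76% lower among all tested genes. An unadjusted p under 0.05 was found for 11 of the 22, and 6 passed with DESeq2. Aldh3a1, an aldehyde dehydrogenase, had at most 4 counts per wildtype library and 27.3 ± 17.0 CPM (n = 3) in Ep400 ko clones, a log2 difference of 8.21 ± 0.69 (adjusted p 0.00121, edgeR). The retinaldehyde dehydrogenase gene Aldh1a1 rose by 3.42 ± 0.53 and the carbonyl reductase gene Cbr3 by 3.47 ± 0.87 on the log2 scale, with adjusted p of 0.00677 and 0.0335 by edgeR. Aldh1a1 had at most 15 counts per wildtype library and 3.62 ± 2.51 CPM (n = 3) in Ep400 ko clones. Akr1b8, an aldo-keto reductase gene, fell by 0.98 ± 0.18 (adjusted p 0.0111, edgeR). In Kat5 ko clones 0 of 21 passed the edgeR test, 4 had an unadjusted p under 0.05 and 2 passed with DESeq2. Between the knockouts, 1 of 22 was called higher in Ep400 ko clones, Aldh3a1 (7.75 ± 0.98, adjusted p 0.0203, edgeR), and 0 lower. There 12 had an unadjusted p under 0.05 and 6 passed with DESeq2.

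NRF2, encoded by Nfe2l2, and its inhibitor Keap1 were listed with the usual NRF2 target genes. Nfe2l2 transcripts rose in Ep400 ko clones by 0.87 ± 0.16 on the log2 scale (adjusted p 0.0116, edgeR), and their difference in Kat5 ko clones was −0.22 ± 0.17 (adjusted p 0.470, edgeR). For Keap1, the differences were 0.00 ± 0.13 and −0.15 ± 0.14, with adjusted p of 0.990 and 0.553 by edgeR. Of 28 tested genes, 6 rose and 1 fell in Ep400 ko clones, among them the ferritin genes Fth1 (1.34, adjusted p 0.0044, edgeR) and Ftl1 (1.01, adjusted p 0.00676, edgeR), beside 8.09% and 5.76% of all tested genes. G6pdx, whose product supplies NADPH, fell by 0.91 ± 0.17 (adjusted p 0.0136, edgeR). The much-used NRF2 target Nqo1 had a difference of 1.01 ± 0.31 that did not pass (adjusted p 0.0610, edgeR). Estimates below 0 that did not pass included Slc7a11 (−1.14 ± 0.48, adjusted p 0.137, edgeR) and Abcc1 (−0.85 ± 0.29, adjusted p 0.0835, edgeR). The median log2 difference of the 28 genes was 0.16 in Ep400 ko clones. An unadjusted p under 0.05 was found for 16 of the 28 in Ep400 ko clones, and 11 passed with DESeq2. In Kat5 ko clones 0 of the 28 passed the edgeR test, 5 had an unadjusted p under 0.05 and 3 passed with DESeq2. Between the knockouts, Nfe2l2 (1.03, adjusted p 0.0414, edgeR) and Fth1 (1.66, adjusted p 0.0281) were higher in Ep400 ko clones. G6pdx (−1.03, adjusted p 0.0393, edgeR) and Abcc1 were lower, beside 4.34% higher and 2.97% lower among all tested genes. Over all 83 tested listed genes, the median log2 difference in Ep400 ko clones was 0.00. Of them, 13 rose and 3 fell, beside 8.09% and 5.76% of all tested genes.

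**Figure D5:**
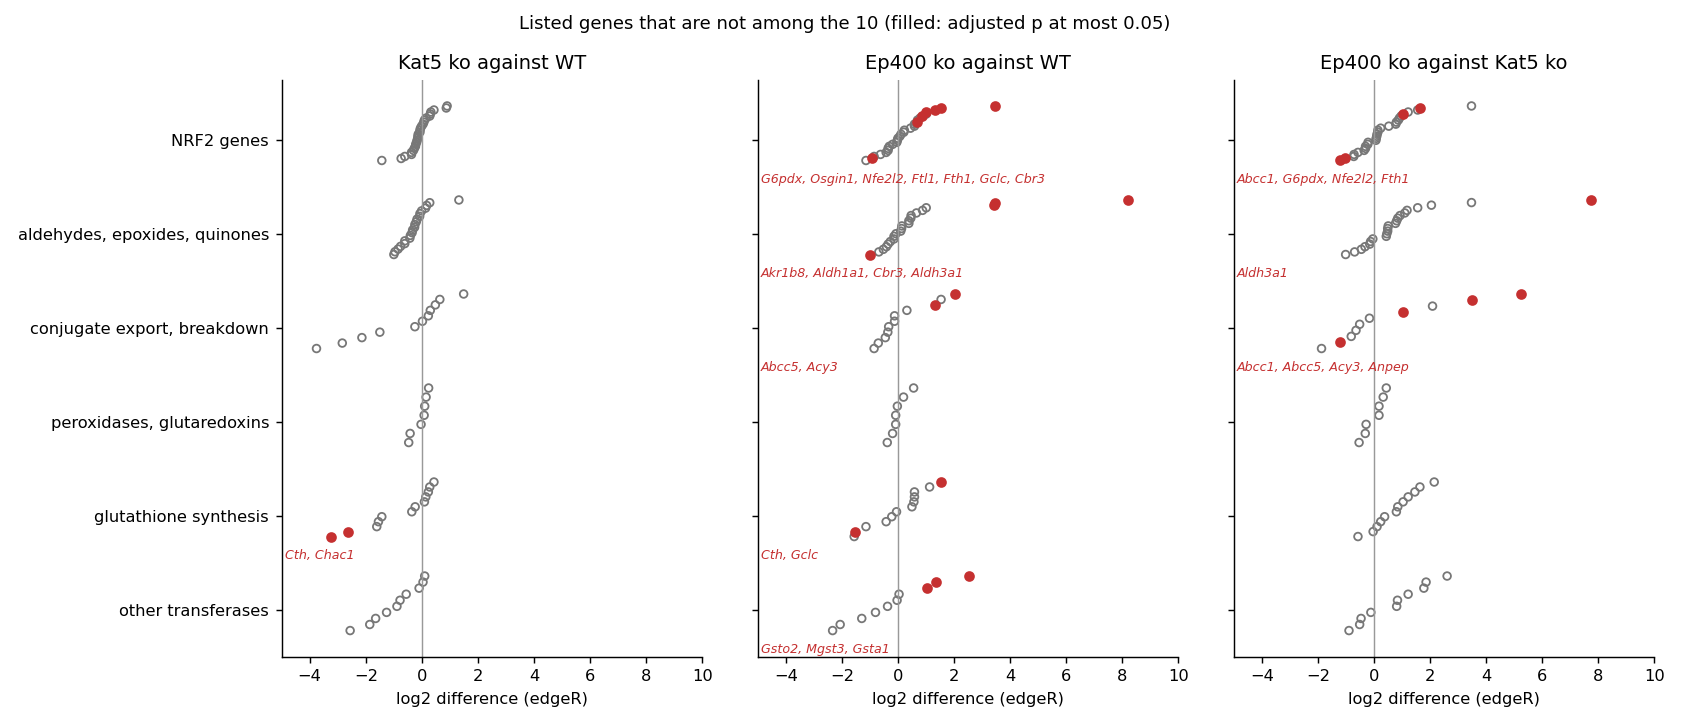
Log2 differences (edgeR) of the listed genes that are not among the 10, by list and comparison, with filled red points for an adjusted p of at most 0.05, whose names stand in red beneath each list; genes on more than 1 list are drawn in each. In Kat5 ko clones the filled points were Cth and Chac1, and in Ep400 ko clones Aldh3a1 lay farthest from 0 at 8.21.

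The nearest tested genes around the 10 were examined, at distances of up to 5280 kb. Of these 38 neighbours, 0 passed the edgeR test in the comparison of Kat5 ko with wildtype (9 had an unadjusted p under 0.05 and 5 passed with DESeq2). In the comparison of Ep400 ko with wildtype, 4 rose and 1 fell. These counts stand beside 8.09% higher and 5.76% lower among all tested genes, and in Ep400 ko 11 neighbours had an unadjusted p under 0.05 and 10 passed with DESeq2. The 4 that rose were Gsto2 and Gsta1, already described above, Eps8 at 485 kb from Mgst1 and Add3 at 5280 kb from Gsto1. Beside the theta pair, Ddt, which encodes D-dopachrome tautomerase and lies 0.701 kb away, had a difference of 0.46 ± 0.30 in Ep400 ko clones (adjusted p 0.315, edgeR). The cytokine gene Mif, 60.8 kb away on the other side, fell by 1.85 ± 0.31 (adjusted p 0.00873, edgeR). The other 4 neighbours of the pair that were tested did not pass in Ep400 ko clones by edgeR, with Lrrc75b at 1.46 ± 0.76 (adjusted p 0.221), Mmp11 at 0.36 ± 0.32 (0.472), Cabin1 at 0.05 ± 0.13 (0.824) and Smarcb1 at −0.26 ± 0.15 (0.269). Gstt2, another theta-class gene, was too low to test, with 0 to 7 counts in wildtype samples and 3 to 16 in Ep400 ko clones. A change of the wider region was not tested. Next to Gsto1, Gsto2 rose as described.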

How the data were processed

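The RNA of 4 wildtype samples, 3 Kat5 ko clones and 3 Ep400 ko clones was examined as whole read counts per gene, which the authors deposited unnormalized. Per the labels and methods, stranded poly-A libraries were sequenced as paired reads. The submitters' processing notes name bcl2fastq 2.20, STAR 2.7.3, DESeq2 1.36.0, R 4.2.1 and mm10, and the counting program, its strand setting and the annotation are not given in the sources used here. Without the strand setting, reads of overlapping genes cannot be told apart. The deposited tables of normalized values hold the same libraries divided by size factors and were not used.

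Samples were grouped by their labels. For each comparison, low genes were removed by filterByExpr, TMM factors were computed, and edgeR 4.0.16 was used (R 4.3.3, quasi-likelihood test, Benjamini-Hochberg adjustment over all tested genes), and a gene was called at an adjusted p of at most 0.05. CPM values used TMM factors over all 10 libraries. Groups with at most 3 counts per library were compared as ratios with exact counting intervals (scipy 1.17.1) or bounds. Coordinates, exon lengths and shared windows came from GENCODE M21. The members and lists were chosen with earlier results of these data known. Named were the 10 genes, tested transferases and their listed relatives, up to 4 called genes of each list with the largest difference, the nearest tested neighbours (mostly as counts), Kat5, Ep400, Nfe2l2 and Keap1. Nqo1, Slc7a11, Gstk1 and, as the only gene that fell in its list, G6pdx were named after their values had been seen. Libraries of 1 group were no repeats of each other, since their counts differed beyond sampling (chi-square over its degrees of freedom from 28.1 to 258). P-values measure the spread between these samples. The procedure was tested on simulated data. Alternatives were DESeq2 1.42.0, other normalizations and filters, the study's call rule (absolute log2 difference of at least 1 and a group mean over 100 normalized counts), a single fit, chromosome offsets, a replicate block and each library left out.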

Additional observations from a re-analysis of the deposited data

Results flagged for a closer look

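For Gstm7, WT/3 stood apart from the other wildtype samples, at 6.16 CPM against 2.95 to 3.00 CPM, and its gap to the next sample was 0.983 of the whole range, above Dixon's 95% critical value for 4 samples. Of 10 wildtype groups of 4 that were examined this was the only one beyond the limit, and chance alone exceeds it in about 5% of groups.

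Gstm1, Gstt1 and Gstt3 had all Kat5 ko clones below and all Ep400 ko clones above the wildtype range in CPM. For Gstt3, the Kat5 ko side rests on 2 to 3 counts against a wildtype sample with 3 counts. The log2 difference between Ep400 ko and Kat5 ko clones was 1.99 for Gstm1 and 4.84 for Gstt3, and Gstt1 was at least 26.5-fold higher in Ep400 ko clones. The genes were chosen on these contrasts, and this difference carries no p-value here.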

How the results depend on the processing

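With DESeq2 the called genes numbered 1382 of all genes, 4 of the 10 transferase genes and 15 listed genes in Kat5 ko against wildtype (67, 2 and 2 with edgeR), 3177 of all genes and 26 listed genes in Ep400 ko against wildtype (1917 and 16), and 3021 and 28 in Ep400 ko against Kat5 ko (994 and 8). A single fit of all 10 libraries called 26 of all genes, 1 of the 10 and 1 listed gene for Kat5 ko, 1273 of all and 10 listed genes for Ep400 ko, and 3539 and 28 between the knockouts. Without a filter, 245 genes were called for Kat5 ko, and 1803 genes with 16 listed ones between the knockouts. Scaling by library size alone called 1 listed gene for Kat5 ko, and chromosome offsets 13 between the knockouts. The study's call rule called 895 of all genes and 1 of the 10 for Ep400 ko. Replicate numbers did not pair the libraries (correlations of deviations from −0.12 to 0.23). With the replicate block, 0 of all genes, 0 of the 10 and 0 listed genes were called for Kat5 ko, 170, 0 and 2 for Ep400 ko, and 213, 1 and 3 between the knockouts. With single libraries left out, the counts for all genes, the 10 and the listed genes ranged from 1 to 2651, 0 to 5 and 0 to 17 for Kat5 ko, from 826 to 2016, 2 to 5 and 11 to 19 for Ep400 ko, and from 4 to 2537, 0 to 7 and 0 to 17 between the knockouts. The highest Kat5 ko counts arose without Kat5/1 (2651, 5 and 17) and the lowest without WT/1. For Ep400 ko, 5 of the 10 were called without Ep400/1. Between the knockouts 0 of the 10 were called without Kat5/2, Kat5/3 or Ep400/3, 1 without Ep400/2 and 4 without Ep400/1. The cause of these changes was not tested. All 12 called differences of the 10 genes kept their sign under every alternative, and 6 of the 16 others changed it in at least 1. Depth limits the theta-class genes, which had at most 19 counts per library in wildtype and Kat5 ko cells.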
